A study of Mus musculus with 18 samples.

Results

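The genes described here are 40 nucleolar and ribosomal RNA (rRNA) processing genes of the mouse, together called ribosome biogenesis genes. The rule lists them by name and uses no measured value, though the list was drawn up with earlier results of these data known, and all 40 were found among the 55414 genes of the deposited expression table. By role, 4 act in transcription by RNA polymerase I, 7 encode nucleolar phosphoproteins and regulators, 3 are parts of box C/D small nucleolar ribonucleoproteins (snoRNPs) and 4 of box H/ACA snoRNPs. A further 10 act in processing of the small ribosomal subunit, 9 in processing of the large subunit, and 3 belong to the RNA exosome.

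Ribosomes are built in the nucleolus, where RNA polymerase I copies the rRNA genes into a long precursor. The precursor is then modified by snoRNPs, cut and trimmed by processing factors and the RNA exosome, and assembled with ribosomal proteins into the small and large subunits. Proliferating cells such as those of the intestinal crypt make many ribosomes, and the Myc proteins are known activators of genes of this pathway. 5-Fluorouracil (5-FU), a pyrimidine analog, is known both to block thymidylate synthesis and to enter RNA. The libraries measured here hold polyadenylated RNA, so the values are those of the messenger RNAs of the factors and say nothing of rRNA itself.

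The study compared organoids, which are small epithelial cultures, from the small intestine of C57BL/6J WT mice, with 3 biological replicates in each of 6 groups. All cultures were harvested on day 6. MG_Control cultures came from crypts and were embedded in Matrigel, a gel of basement membrane proteins, and fed ENR medium, which supplies EGF, Noggin and R-spondin 1. MG_5FU was the same with 5-FU at 40 µM from day 4. COL_Control and COL_5FU, also from crypts, were kept in ENRW medium in gels of collagen type I, the latter with the same 5-FU treatment. COL_cWRNE came from crypts too and was kept in gels of collagen type I in medium with 25% cWRNE and no 5-FU. VIL was grown from villi taken within 3 cm of the pylorus, in the same collagen and 25% cWRNE medium, also without 5-FU. No such distance is recorded for the crypt groups, so gut region cannot be told apart from villus or crypt origin. Matrix and medium changed together between the Matrigel and collagen groups, so their parts cannot be told apart.

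Levels are CPM (counts per M) scaled by TMM, a correction for differences in RNA composition, in the order of replicates 1, 2 and 3. Fold changes are on the log2 scale with the standard error (SE) of edgeR's quasi-likelihood fit, and calls were made below an adjusted p of 0.05 (Benjamini-Hochberg over all genes tested). Each library held between 22.3 M and 34.5 M estimated counts, and every one of the 40 genes was detected in every library and passed the filter on low counts in every comparison. Transcripts of Npm1, Mybbp1a, Fbl, Nop56, Gar1, Nhp2, Pes1 and Rrs1 (8 genes) have near copies elsewhere in the GENCODE M21 transcripts. Exons of Polr1a, Mybbp1a, Nop14, Bysl, Pes1, Noc2l, Exosc2 and Exosc5 (8 genes) overlap another gene by at least 100 bases, leaving snoRNA and miRNA genes aside, and the counting is not stated to use strand. In bulk samples, fewer cells of a type and less RNA per cell cannot be told apart.

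The drug labels were checked first. Cdkn1a, a p53 target and cell cycle inhibitor, rose by 3.34 ± 0.20 with 5-FU in Matrigel (edgeR adjusted p = 9.95e-08) and by 2.31 ± 0.19 in collagen (edgeR adjusted p = 2.06e-06). Mdm2, another p53 target, rose by 2.96 ± 0.13 and 3.05 ± 0.13. Without 5-FU both were also higher in collagen with ENRW than in Matrigel (Cdkn1a 0.83 ± 0.19, edgeR adjusted p = 0.00426, and Mdm2 1.03 ± 0.12, 2.63e-05). In cWRNE against Matrigel they were higher too (1.74 ± 0.27 and 1.55 ± 0.21). The rise of Cdkn1a with 5-FU was smaller in collagen (interaction -1.03 ± 0.26, edgeR adjusted p = 0.0282), and that of Mdm2 was not called as different (0.09 ± 0.17). The 5 epithelial markers were detected in all 18 libraries. The villus-derived libraries stood apart. Summed over 10 mesenchyme markers, they held 50.5, 742 and 703 CPM against 0.666 to 13.9 CPM in the other 15 libraries, and summed over 6 immune markers, 963, 2739 and 3870 CPM against 22.5 to 141 CPM. Results that use VIL are therefore given with and without its libraries.

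Per transcript length, measured in TPM (transcripts per M), the 40 genes covered a wide range of levels in the Matrigel controls. Npm1, which encodes a histone chaperone and ribosome export factor, was highest at 684 ± 56.0 TPM (SD, n = 3). Nop56, a box C/D snoRNP core protein, followed at 321 ± 27.8 TPM, Ncl, which encodes nucleolin, at 304 ± 27.7 TPM and Nhp2, a box H/ACA core protein, at 295 ± 31.1 TPM. These last 3 lay within each other's spread. The lowest were Noc3l, a large subunit export factor, at 10.2 ± 2.76 TPM and Utp20, a small subunit scaffold protein, at 5.40 ± 1.58 TPM. The polymerase I subunit gene Polr1a was also near the lower end, at 16.0 ± 3.78 TPM.

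Several of the genes also carry snoRNA genes inside them, the guide RNAs with which the proteins Fbl and Dkc1 modify rRNA. In the GENCODE M21 annotation, 6 of the 40 (15.0%) are such hosts, namely Ncl, Gnl3, Nop56, Nop58, Dkc1 and Wdr43. So are 217 of 13434 protein-coding genes tested (1.62%) and 4 of 112 other ribosome biogenesis genes (3.57%). Named guests are Snora75 and Snord82 in Ncl, Snord69 and Snord19 in Gnl3, Snord110 and Snord57 in Nop56, Snord70 and Snord11 in Nop58, and Snord92 and Snord53 in Wdr43. These short RNAs are not measured in libraries of polyadenylated RNA.

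Promoters were read because many of the genes moved together between matrices and because the letters CACGTG are the known binding word of Myc proteins. RefSeq promoter sequences (GRCm38.p6, 250 bases before to 50 after the start) were found for 34 of the 40 genes. CACGTG, which reads the same on both strands, was in 8 of the 34 (23.5%). It was in 11.4% of the 11143 promoters of genes tested and 8.09% of all 27025. Of 93 promoters of other ribosome biogenesis genes, from a list described below, 16.1% held it. The 8 were Nop2, Exosc5, Utp4, Utp20, Pes1, Mybbp1a, Wdr43 and Rrn3, the last with 2 copies. CCGGAAG on either strand was in 29.4% of the 34 against 19.2% of tested genes, CCAAT in 35.3% against 42.9%, and TATAAA in 5.88% against 9.49%. In the 93 promoters of other ribosome biogenesis genes these 3 shares were 48.4%, 38.7% and 6.45%. Median GC content was 59.3% in the members' promoters against 60.3% in those of tested genes. A match describes the letters and is no evidence of binding. The 4 promoters below are shown because their genes take different courses in the results. Utp4 was called higher with 5-FU in both matrices, though in Matrigel the call depended on scaling and on single libraries. Nop2 rose with it in collagen, and Rrn3 and Pes1 were called with it in neither matrix. Capitals mark CACGTG, which starts 60 bases before the start of Nop2, 16 bases after that of Utp4, 3 bases after that of Pes1, and 215 and 48 bases before that of Rrn3.
Nop2 (chr6:125131633-125131932, plus strand): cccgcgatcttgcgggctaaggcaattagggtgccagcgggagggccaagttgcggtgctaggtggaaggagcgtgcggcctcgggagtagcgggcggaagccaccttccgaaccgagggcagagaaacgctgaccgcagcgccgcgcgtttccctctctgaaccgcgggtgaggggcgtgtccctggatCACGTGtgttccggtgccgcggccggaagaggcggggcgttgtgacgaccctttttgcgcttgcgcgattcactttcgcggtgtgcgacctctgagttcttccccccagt
Utp4 (chr8:106893390-106893689, plus strand): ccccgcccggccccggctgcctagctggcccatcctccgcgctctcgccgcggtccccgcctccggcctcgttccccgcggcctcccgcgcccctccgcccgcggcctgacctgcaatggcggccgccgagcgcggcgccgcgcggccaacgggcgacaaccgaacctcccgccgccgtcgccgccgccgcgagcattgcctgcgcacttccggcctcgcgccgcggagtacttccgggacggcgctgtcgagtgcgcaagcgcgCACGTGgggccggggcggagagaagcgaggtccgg
Rrn3 (chr16:13780449-13780748, plus strand): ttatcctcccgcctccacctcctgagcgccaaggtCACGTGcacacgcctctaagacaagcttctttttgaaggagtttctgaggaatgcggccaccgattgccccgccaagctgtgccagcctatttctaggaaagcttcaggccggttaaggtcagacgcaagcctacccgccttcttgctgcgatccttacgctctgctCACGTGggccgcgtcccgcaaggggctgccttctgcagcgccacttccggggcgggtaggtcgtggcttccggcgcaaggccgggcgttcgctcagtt
Pes1 (chr11:3963725-3964024, plus strand): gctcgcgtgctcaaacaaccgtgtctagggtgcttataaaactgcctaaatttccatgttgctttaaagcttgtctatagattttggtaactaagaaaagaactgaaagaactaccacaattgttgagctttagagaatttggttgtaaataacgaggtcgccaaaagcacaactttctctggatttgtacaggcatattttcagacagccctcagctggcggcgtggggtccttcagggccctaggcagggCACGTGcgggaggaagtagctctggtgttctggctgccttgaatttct

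**Figure D1:**
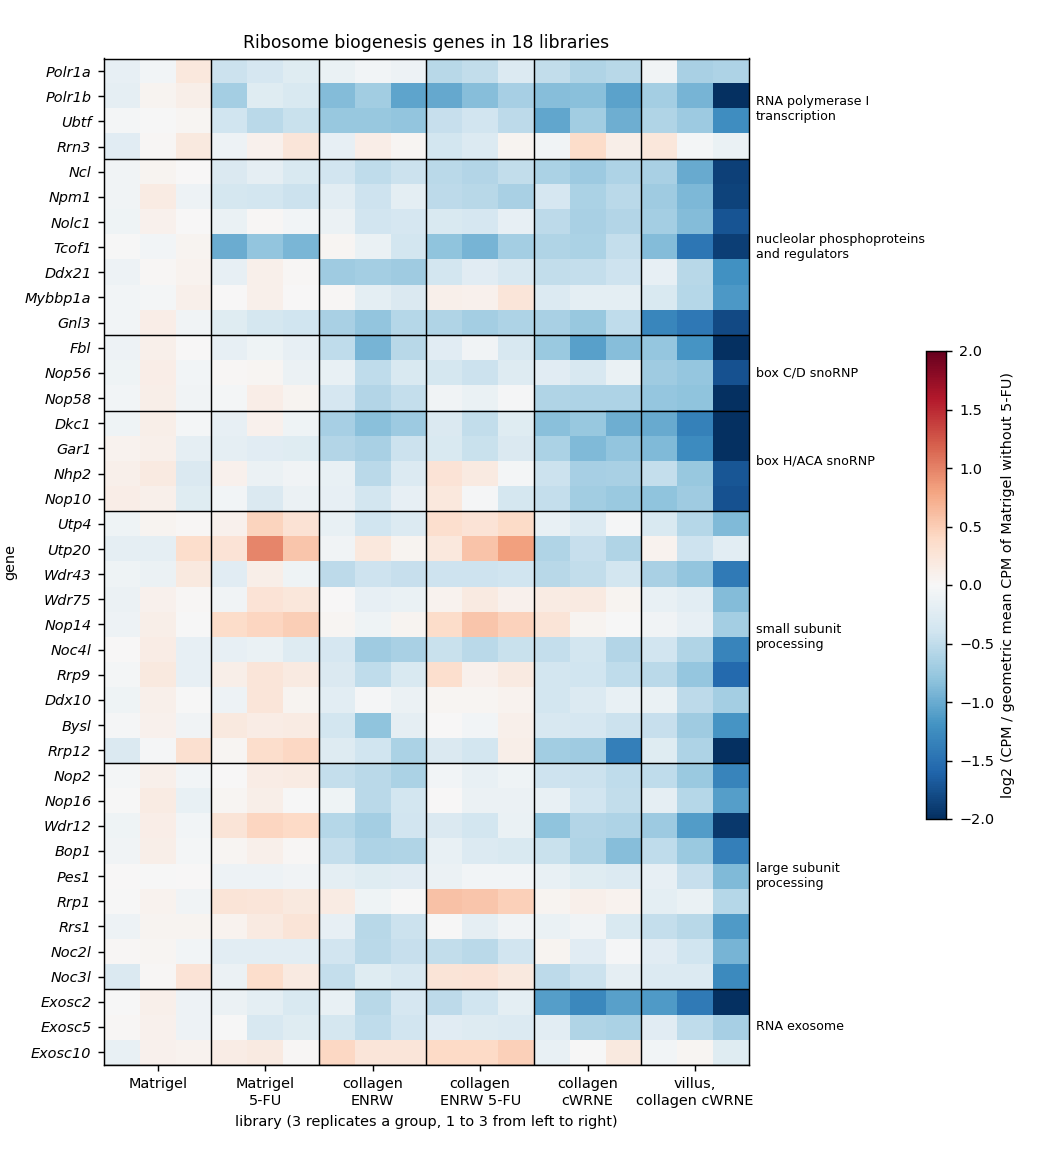
Level of each of the 40 genes (rows, by role) in each of the 18 libraries (columns, replicates 1 to 3 of each group from left to right), as log2 of CPM over the geometric mean of the Matrigel controls; the colour scale stops at 2 in each direction. The collagen and cWRNE groups are mostly blue (lower), and VIL replicate 3 is the darkest column, lowest of all 18 libraries for 37 of the 40 genes. The share of all genes lowest in that library was not counted.

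Without 5-FU, most of the 40 genes were lower in collagen with ENRW than in Matrigel. In collagen with ENRW, 25 of the 40 were lower and 1 was higher, where 15.4% of the 16611 genes tested were called lower and 15.8% higher. The median log2 fold change of the 40 was -0.38, against 0.04 over all genes tested. Among genes of at least 10 CPM in 3 libraries, 20.4% were called lower and 22.6% higher, and the members stayed at 25 and 1. The summed level of the 40 genes was 6249 ± 297 CPM in Matrigel and 4887 ± 303 CPM in collagen (SD, n = 3). The 15 proliferation genes differed little between the same libraries: 0 were called higher and 1 lower, with Mki67, a proliferation marker, at 0.01 ± 0.16 (edgeR adjusted p = 0.985). Myc itself was not called either (0.06 ± 0.10, edgeR adjusted p = 0.699). Of 9 regulator genes, Myc among them, 1 was called higher and 3 lower in collagen, as given below.

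Of the 4 polymerase I genes, 2 fell. Polr1b, a core subunit of the polymerase, was at 93.0, 110 and 115 CPM in Matrigel and at 57.7, 65.1 and 50.9 CPM in collagen. The groups did not overlap, and the fold change was -0.88 ± 0.15 (edgeR adjusted p = 0.00049). Ubtf, which encodes the upstream binding factor that keeps rRNA genes open, was at 127, 129 and 134 CPM and at 76.5, 76.6 and 75.2 CPM. It fell by 0.78 ± 0.08 on the log2 scale (edgeR adjusted p = 1.1e-05), again without overlap. Polr1a, the largest subunit, was at 57.7, 62.0 and 74.4 CPM against 58.9, 62.2 and 59.8 CPM, so its groups overlapped (-0.11 ± 0.12, edgeR adjusted p = 0.537). Rrn3, the initiation factor TIF-IA, also overlapped, at 55.4, 66.2 and 74.8 CPM against 58.2, 70.9 and 66.7 CPM (-0.02 ± 0.15, edgeR adjusted p = 0.952).

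Among the nucleolar phosphoproteins and regulators, 5 of 7 fell. Ddx21, an RNA helicase of rRNA transcription and processing, went from 83.5, 90.7 and 94.1 CPM to 54.4, 55.7 and 54.8 CPM. Every collagen library lay below every Matrigel library (-0.71 ± 0.10, edgeR adjusted p = 0.000109). Ncl was at 784, 854 and 823 CPM in Matrigel and 629, 576 and 606 CPM in collagen (-0.45 ± 0.08, edgeR adjusted p = 0.000924). Npm1 had a smaller gap, with 608, 713 and 595 CPM against 552, 477 and 558 CPM (-0.28 ± 0.09, edgeR adjusted p = 0.0377). That call ended without MG_Control replicate 2 (-0.19, edgeR adjusted p = 0.173), COL_Control replicate 1 (-0.31, adjusted p = 0.0547) or COL_Control replicate 2 (-0.21, adjusted p = 0.144). Gnl3, the nucleolar GTPase nucleostemin, fell by 0.68 ± 0.09 and Nolc1, a snoRNP chaperone, by 0.29 ± 0.10. The Nolc1 call was weak: it held in 5 of 14 alternative fits and ended without MG_Control replicate 2 (-0.24, adjusted p = 0.158) or replicate 3 (-0.27, 0.108), without COL_Control replicate 2 (-0.24, 0.155) or replicate 3 (-0.26, 0.133), and with the replicate number as a block (-0.29, 0.0525). The others, Tcof1 (-0.15 ± 0.11, edgeR adjusted p = 0.333) and Mybbp1a (-0.16 ± 0.10, edgeR adjusted p = 0.269), were not called.

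All 3 box C/D genes and 2 of the 4 box H/ACA genes fell. Fbl, the rRNA 2'-O-methyltransferase fibrillarin, was at 124, 143 and 134 CPM in Matrigel and 94.1, 70.1 and 90.6 CPM in collagen. The groups were apart, at -0.66 ± 0.12 (edgeR adjusted p = 0.000789). Nop56 was at 312, 363 and 316 CPM against 296, 233 and 267 CPM (-0.33 ± 0.11, edgeR adjusted p = 0.033). Its call was less stable and ended when MG_Control replicate 2 (-0.25, adjusted p = 0.143), MG_Control replicate 3 (-0.34, 0.0546), COL_Control replicate 2 (-0.24, 0.134) or COL_Control replicate 3 (-0.34, 0.0693) was left out. Nop58, the partner of Nop56, fell by 0.47 ± 0.10. Dkc1, the rRNA pseudouridine synthase dyskerin, was at 194, 224 and 201 CPM against 130, 116 and 124 CPM. It had the largest change of the snoRNP genes (-0.75 ± 0.11, edgeR adjusted p = 0.000128), and Gar1 fell by 0.56 ± 0.10. The small core proteins Nhp2 (-0.33 ± 0.13, edgeR adjusted p = 0.0682) and Nop10 (-0.24 ± 0.14, edgeR adjusted p = 0.203) were not called.

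Of the 10 small subunit genes, 4 fell: Noc4l (-0.57 ± 0.11), Wdr43 (-0.48 ± 0.11), Bysl (-0.44 ± 0.13) and Rrp9 (-0.38 ± 0.11). The 6 not called ranged from Rrp12 at -0.46 ± 0.18 (edgeR adjusted p = 0.0762) and Utp4 at -0.28 ± 0.11 (edgeR adjusted p = 0.0674) to Utp20 at 0.03 ± 0.21 (edgeR adjusted p = 0.933). Wdr75 (-0.10), Ddx10 (-0.13) and Nop14 (-0.01) lay between. Of the large subunit genes, 7 of 9 were lower. These included all 3 genes of the PeBoW complex, Pes1, Bop1 and Wdr12, which acts in maturation of the large subunit rRNA. Bop1 fell by 0.58 ± 0.09 and Wdr12 by 0.55 ± 0.11. Pes1 was at 174, 172 and 174 CPM in Matrigel and 151, 147 and 148 CPM in collagen, a small but tight gap of -0.23 ± 0.07 (edgeR adjusted p = 0.0302). Leaving out any 1 of these 6 libraries moved the adjusted p of Pes1 to between 0.0512 and 0.0867 and its fold change to between -0.24 and -0.21. Nop2, an rRNA methyltransferase, fell by 0.55 ± 0.09, Noc2l by 0.47 ± 0.08, Rrs1 by 0.39 ± 0.11 and Nop16 by 0.33 ± 0.12. Only Noc3l (-0.37 ± 0.16, edgeR adjusted p = 0.0952) and Rrp1 (0.02 ± 0.08, edgeR adjusted p = 0.887) were not called among the 9.

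The exosome, the 3' to 5' exonuclease that trims rRNA precursors, was divided. Its core genes Exosc5 (-0.42 ± 0.10) and Exosc2 (-0.34 ± 0.12) fell. Exosc10, the nuclear catalytic subunit, was the 1 member that rose, from 57.7, 67.7 and 67.2 CPM to 85.7, 75.5 and 75.7 CPM (0.29 ± 0.10, edgeR adjusted p = 0.0412). The groups did not overlap, but the call ended without MG_Control replicate 1 (0.21, adjusted p = 0.127) or COL_Control replicate 1 (0.23, 0.151), replicate 2 (0.32, 0.0592) or replicate 3 (0.31, 0.0665). Of the 25 lower calls, 10 held in all 14 alternative fits: Polr1b, Ubtf, Ddx21, Gnl3, Fbl, Dkc1, Noc4l, Nop2, Bop1 and Exosc5. Leaving out MG_Control replicate 2 or COL_Control replicate 2 brought the lower calls to 16, where 11.1% and 11.5% of genes tested were called lower. Either omission ended the calls of Rrp9 (-0.26, adjusted p = 0.101, and -0.31, 0.0805), Bysl (-0.39, 0.0743, and -0.28, 0.0671), Nop16 (-0.24, 0.193, and -0.24, 0.174), Rrs1 (-0.36, 0.0666, and -0.30, 0.0863) and Exosc2 (-0.29, 0.148, and -0.25, 0.168). The calls of Nop16, Rrs1 and Exosc2 also ended without COL_Control replicate 3 (-0.31, 0.117; -0.36, 0.0641; -0.35, 0.0889). That of Nop16 ended without MG_Control replicate 1 (-0.35, 0.0655), that of Rrs1 without MG_Control replicate 3 (-0.34, 0.0621), and that of Exosc2 without either of these (-0.35, 0.0694, and -0.38, 0.0533). On deposited TPM with limma, 2 members were called higher and 11 lower, and the median was -0.15 against 0.23 for all genes. Scaled by library totals, the counts were 1 and 19, and 59.7% of all called genes were higher rather than 50.7%.

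**Figure D2:**
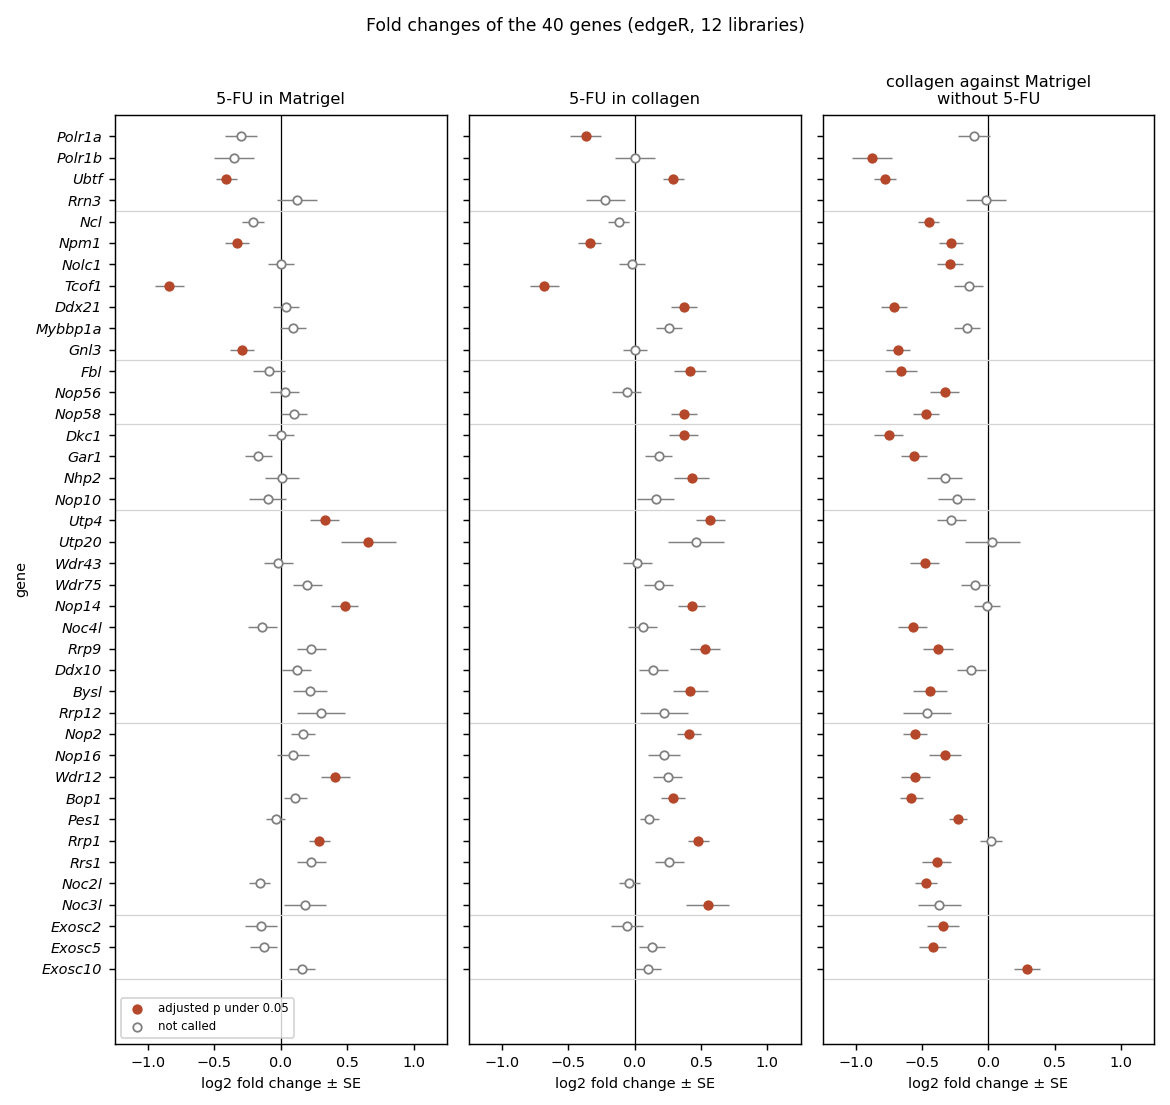
Log2 fold change (points) with SE (bars) of each of the 40 genes in 3 comparisons of 12 libraries fitted together, filled where the edgeR adjusted p was under 0.05. With TMM scaling, 25 filled points lie left of 0 for collagen against Matrigel, 14 lie right of 0 for 5-FU in collagen and 5 for 5-FU in Matrigel; with library totals these counts were 19, 9 and 1.

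With 5-FU in Matrigel, the members moved in both directions. Of the 40, 5 rose and 4 fell, where 19.2% of the 16611 genes tested were called higher and 11.7% lower. The median log2 fold change was 0.04 for the 40 and 0.06 for all genes tested. Their summed level was 6249 ± 297 CPM without and 5902 ± 182 CPM with the drug. In the same libraries 14 of the 15 proliferation genes fell and 0 rose, with Mki67 at -1.40 ± 0.16 (edgeR adjusted p = 1.99e-05). The split of the 9 calls depended on scaling: it was 1 higher and 10 lower with library totals, and 0 higher and 19 lower on deposited TPM with limma. Over all called genes the share called higher was 62.2% with TMM scaling, 44.6% with library totals and 28.2% on TPM. In TPM, the 30 genes that passed 5000 TPM in any library held 21.3% to 24.1% of the total with 5-FU in Matrigel and 11.9% to 13.7% without. The part of this in the counts was not tested. Relative to all genes, the median of the 40 moved little, from -0.02 with TMM scaling or library totals to -0.06 on TPM.

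The genes that fell were polymerase I and nucleolar factors. Tcof1, the treacle protein that joins polymerase I to rRNA genes, was at 96.5, 93.8 and 101 CPM without and 49.0, 56.2 and 51.6 CPM with 5-FU. No library overlapped, and the change of -0.84 ± 0.11 was the largest among the 40 (edgeR adjusted p = 8e-05). Ubtf went from 127, 129 and 134 CPM to 98.4, 89.5 and 95.2 CPM (-0.41 ± 0.08, edgeR adjusted p = 0.00167). Both calls held in all 14 alternative fits. Npm1 was at 608, 713 and 595 CPM and then 501, 494 and 474 CPM (-0.33 ± 0.09, edgeR adjusted p = 0.0168). Gnl3 was at 115, 131 and 114 CPM and then 101, 94.1 and 90.5 CPM (-0.29 ± 0.09, edgeR adjusted p = 0.0322). Neither overlapped, but both calls ended without some libraries. For Npm1 these were MG_5FU replicate 3 (-0.31, adjusted p = 0.0592) and MG_Control replicate 2 (-0.24, 0.0788). For Gnl3 they were MG_5FU replicate 2 (-0.27, 0.0806) and replicate 3 (-0.25, 0.113), and MG_Control replicate 2 (-0.21, 0.127) and replicate 3 (-0.30, 0.0516).

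The genes that rose were processing factors, 3 of the 10 for the small subunit and 2 of the 9 for the large one. Nop14, a small subunit assembly factor, went from 48.5, 56.4 and 51.8 CPM to 67.5, 70.3 and 73.5 CPM without overlap (0.48 ± 0.10, edgeR adjusted p = 0.00169). Wdr12 went from 78.6, 91.6 and 80.6 CPM to 100, 112 and 110 CPM (0.41 ± 0.11, edgeR adjusted p = 0.0115). All 3 treated libraries lay above the controls for both. Rrp1, a large subunit factor, was at 289, 303 and 277 CPM and then 346, 343 and 330 CPM (0.29 ± 0.08, edgeR adjusted p = 0.0196). Utp4 was at 115, 126 and 124 CPM and then 129, 165 and 149 CPM (0.33 ± 0.11, edgeR adjusted p = 0.0328). Its groups were apart by only a little. Utp20 had the largest rise (0.66 ± 0.21, edgeR adjusted p = 0.0304), from 28.9, 28.7 and 41.8 CPM to 39.5, 64.2 and 47.7 CPM, with overlap, and its call ended without MG_5FU replicate 2 (0.45, adjusted p = 0.149) or replicate 3 (0.70, 0.0562), or MG_Control replicate 1 (0.56, 0.105) or replicate 2 (0.57, 0.109). None of these 5 calls held in all 14 alternative fits. On TPM the signs of Wdr12 (-0.09, adjusted p = 0.635 by limma) and Rrp1 (-0.02, adjusted p = 0.893 by limma) reversed. The call of Utp4 held in 5 of 14 alternative fits, with fold changes from 0.00 to 0.44. It ended with RLE size factors, with library totals, without the filter, on TPM with limma and with all 18 libraries. The mean level of Utp4 was 70.8 ± 8.24 TPM without and 71.4 ± 12.9 TPM with 5-FU. Its call also ended without MG_5FU replicate 2 (0.25, adjusted p = 0.127) or replicate 3 (0.33, 0.0793), or MG_Control replicate 1 (0.28, 0.0995) or replicate 2 (0.36, 0.0505). That of Rrp1 ended without MG_Control replicate 3 (0.27, 0.0578).

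The other 31 members were not called with 5-FU in Matrigel. Polr1a was at 47.5, 51.0 and 54.2 CPM with the drug, below all its controls (-0.30 ± 0.12, edgeR adjusted p = 0.0854). Polr1b, at 66.2, 89.4 and 85.8 CPM, was also below all controls (-0.35 ± 0.15, edgeR adjusted p = 0.0895). Ncl was at 669, 721 and 666 CPM (-0.21 ± 0.08, edgeR adjusted p = 0.0716). These 3 had groups that did not overlap and still missed the threshold. With the replicate number as a block, Polr1a (-0.29, adjusted p = 0.0403) and Polr1b (-0.35, 0.0376) were called, which brought the lower calls from 4 to 6. Rrn3 overlapped its controls, at 60.8, 68.7 and 76.6 CPM (0.12 ± 0.15, edgeR adjusted p = 0.602). The snoRNP genes lay close to 0: Fbl at 119, 126 and 119 CPM (-0.09 ± 0.12), Nop56 at 336, 340 and 303 CPM (0.03 ± 0.11) and Dkc1 at 184, 219 and 195 CPM (0.00 ± 0.10). On TPM with limma, Nop56 (-0.36, adjusted p = 0.0238), Dkc1 (-0.38, 0.046) and Nhp2 (-0.29, 0.0253) were called lower. Pes1 was at 162, 162 and 165 CPM (-0.04 ± 0.07) and Exosc10 at 70.7, 72.3 and 64.8 CPM (0.16 ± 0.10). The remaining members had fold changes between -0.17 (Gar1) and 0.30 (Rrp12).

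With 5-FU in collagen, most of the called genes rose. Of the 40, 14 rose and 3 fell, where 18.6% of the genes tested were called higher and 16.7% lower. The median was 0.20 for the 40 and -0.03 for all genes. Their summed level was 4887 ± 303 CPM without and 5419 ± 90.1 CPM with the drug, and the Matrigel controls were at 6249 ± 297 CPM. Here 10 of the 15 proliferation genes fell and 0 rose, with Mki67 at -1.46 ± 0.16 (edgeR adjusted p = 1.8e-05). The higher calls numbered 9 with library totals and 4 on TPM with limma, and 9 without COL_Control replicate 2, while the lower calls numbered 4, 4 and 2. Among all called genes 52.8% were higher with TMM scaling, 41.7% with library totals and 40.2% on TPM. Among genes of at least 10 CPM in 3 libraries, 24.9% were called higher and 25.3% lower with 5-FU in collagen. With that filter the members stayed at 14 and 3, and their median was 0.15 against -0.01 for all genes.

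The snoRNP and processing genes made up 12 of the 14 that rose. Among the snoRNP genes, Fbl went from 94.1, 70.1 and 90.6 CPM to 114, 127 and 107 CPM (0.42 ± 0.12, edgeR adjusted p = 0.0132). Dkc1 went from 130, 116 and 124 CPM to 169, 147 and 174 CPM (0.37 ± 0.11, edgeR adjusted p = 0.0134). In neither gene did a treated library overlap the controls. Both calls depended on single libraries: that of Fbl ended without COL_5FU replicate 2 (0.36, adjusted p = 0.0648) or COL_Control replicate 2 (0.30, 0.0575), and that of Dkc1 without COL_5FU replicate 3 (0.32, 0.0513) or COL_Control replicate 2 (0.34, 0.0548). Nop58 rose by 0.37 ± 0.10 and Nhp2 by 0.43 ± 0.13, the latter not without COL_5FU replicate 1 (0.38, adjusted p = 0.0684) or replicate 2 (0.42, 0.0594), or COL_Control replicate 2 (0.33, 0.0908). Nop56 did not move with them: it was at 259, 244 and 276 CPM with 5-FU, within the range of its controls (-0.06 ± 0.11, edgeR adjusted p = 0.695). Gar1 (0.18 ± 0.10) and Nop10 (0.16 ± 0.14) were not called.

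Among the processing genes, Utp4, part of the first complex on the rRNA precursor, went from 110, 92.4 and 101 CPM to 153, 147 and 159 CPM. The change was 0.57 ± 0.11 (edgeR adjusted p = 0.00119). Rrp9, a protein of the U3 snoRNP, went from 56.7, 48.7 and 55.7 CPM to 86.8, 73.1 and 78.2 CPM (0.53 ± 0.11, edgeR adjusted p = 0.00209). Rrp1 went from 325, 273 and 288 CPM to 433, 424 and 403 CPM (0.48 ± 0.08, edgeR adjusted p = 0.000696). All treated libraries were above all controls in each, and these 3 were the higher calls that held in all 14 alternative fits. Noc3l went from 22.4, 26.4 and 25.2 CPM to 37.5, 37.8 and 35.8 CPM (0.55 ± 0.16, edgeR adjusted p = 0.0164), a call that ended without COL_Control replicate 1 (0.48, adjusted p = 0.0603). Nop14 (0.43 ± 0.10), Bysl (0.42 ± 0.13), Nop2 (0.41 ± 0.09) and Bop1 (0.29 ± 0.09) also rose. The call of Bysl ended without COL_5FU replicate 3 (0.37, adjusted p = 0.0735) or COL_Control replicate 2 (0.26, 0.0805). That of Bop1 ended without COL_5FU replicate 1 (0.26, 0.0623) or COL_Control replicate 2 (0.27, 0.0667) or replicate 3 (0.28, 0.0688). No processing gene fell. Pes1, at 160, 166 and 167 CPM, lay above its controls but was not called (0.11 ± 0.07, edgeR adjusted p = 0.256). The other processing genes not called were Utp20 (0.46 ± 0.21), Rrs1 (0.26 ± 0.11), Wdr12 (0.25 ± 0.11), Rrp12 (0.22 ± 0.18), Nop16 (0.22 ± 0.12), Wdr75 (0.18 ± 0.11), Ddx10 (0.14 ± 0.11), Noc4l (0.06 ± 0.11), Wdr43 (0.02 ± 0.11) and Noc2l (-0.04 ± 0.08).

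The polymerase I and nucleolar genes were mixed in collagen. Ubtf rose from 76.5, 76.6 and 75.2 CPM to 94.6, 100 and 90.0 CPM (0.29 ± 0.08, edgeR adjusted p = 0.0142). That call of Ubtf ended without COL_5FU replicate 2 (0.26, adjusted p = 0.0684), with library totals (0.18, 0.0726), on TPM with limma (0.20, 0.172) and in a fit of all 18 libraries (0.32, 0.085). Ddx21 rose by 0.37 ± 0.10 (edgeR adjusted p = 0.01), from 54.4, 55.7 and 54.8 CPM to 69.3, 76.3 and 71.8 CPM. Both sets of treated libraries lay between the collagen and Matrigel controls. Tcof1 fell as in Matrigel, from 99.4, 88.3 and 75.6 CPM to 55.3, 51.1 and 60.8 CPM (-0.68 ± 0.11, edgeR adjusted p = 0.000418), a call that held in all 14 alternative fits. Npm1 fell from 552, 477 and 558 CPM to 444, 435 and 406 CPM (-0.34 ± 0.09, edgeR adjusted p = 0.0136), and the call ended without COL_Control replicate 3 (-0.29, adjusted p = 0.06). Polr1a went from 58.9, 62.2 and 59.8 CPM to 43.6, 45.5 and 53.3 CPM (-0.37 ± 0.12, edgeR adjusted p = 0.0289). For these 3 genes no treated library reached its controls. The call of Polr1a ended without COL_5FU replicate 1 (-0.30, adjusted p = 0.129) or replicate 2 (-0.34, 0.109), or COL_Control replicate 2 (-0.35, 0.0853) or replicate 3 (-0.38, 0.0705). Polr1b overlapped its collagen controls, with 52.2, 58.6 and 66.4 CPM (0.00 ± 0.15, edgeR adjusted p = 1). Rrn3 was at 50.5, 53.5 and 67.6 CPM (-0.22 ± 0.15, edgeR adjusted p = 0.291) and Ncl at 563, 549 and 585 CPM (-0.12 ± 0.08, edgeR adjusted p = 0.261). Both overlapped their controls. Mybbp1a (0.26 ± 0.10, edgeR adjusted p = 0.0614), Nolc1 (-0.02 ± 0.10) and Gnl3 (0.00 ± 0.09) were not called, nor were the exosome genes Exosc2 (-0.06 ± 0.12), Exosc5 (0.13 ± 0.10) and Exosc10 (0.10 ± 0.10, at 84.6, 84.6 and 89.4 CPM).

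Across both matrices, 6 members were called with 5-FU in each. Nop14, Utp4 and Rrp1 were higher in both, Tcof1 and Npm1 were lower in both, and Ubtf was lower in Matrigel and higher in collagen. In Matrigel the call of Nop14 held in 13 of 14 alternative fits, that of Rrp1 in 9 and that of Utp4 in 5. A further 20 members were called in neither matrix. The shares of all genes called in both or in neither were not counted. The difference between the responses was tested by an interaction term, in which 1 of the 40 genes was called higher in collagen and 0 lower, where 1.88% and 6.3% of genes tested were. That gene was Ubtf, at 0.70 ± 0.12 (edgeR adjusted p = 0.00228), and its call held in all 20 alternative fits with adjusted p from 5.51e-09 to 0.0329. Without the drug Ubtf was far lower in collagen, and with it the groups met: 98.4, 89.5 and 95.2 CPM in Matrigel against 94.6, 100 and 90.0 CPM in collagen. Fbl had the next largest difference (0.51 ± 0.17, edgeR adjusted p = 0.0797). At an unadjusted p under 0.05 there were 6 members higher and 0 lower, and DESeq2 called 3 and 0. The fold change was larger in collagen for 29 of the 40 genes, and for 7310 of all 16611 genes tested. The median interaction was 0.16 against -0.07 for all genes. Over all genes called in the interaction, 313 were higher and 1047 lower with TMM scaling, but 33.0% were higher with library totals and 57.8% on TPM with limma, which called 4 members higher and 0 lower. Calls of 5-FU in 1 matrix alone do not show a difference between matrices for the other 39 genes.

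**Figure D3:**
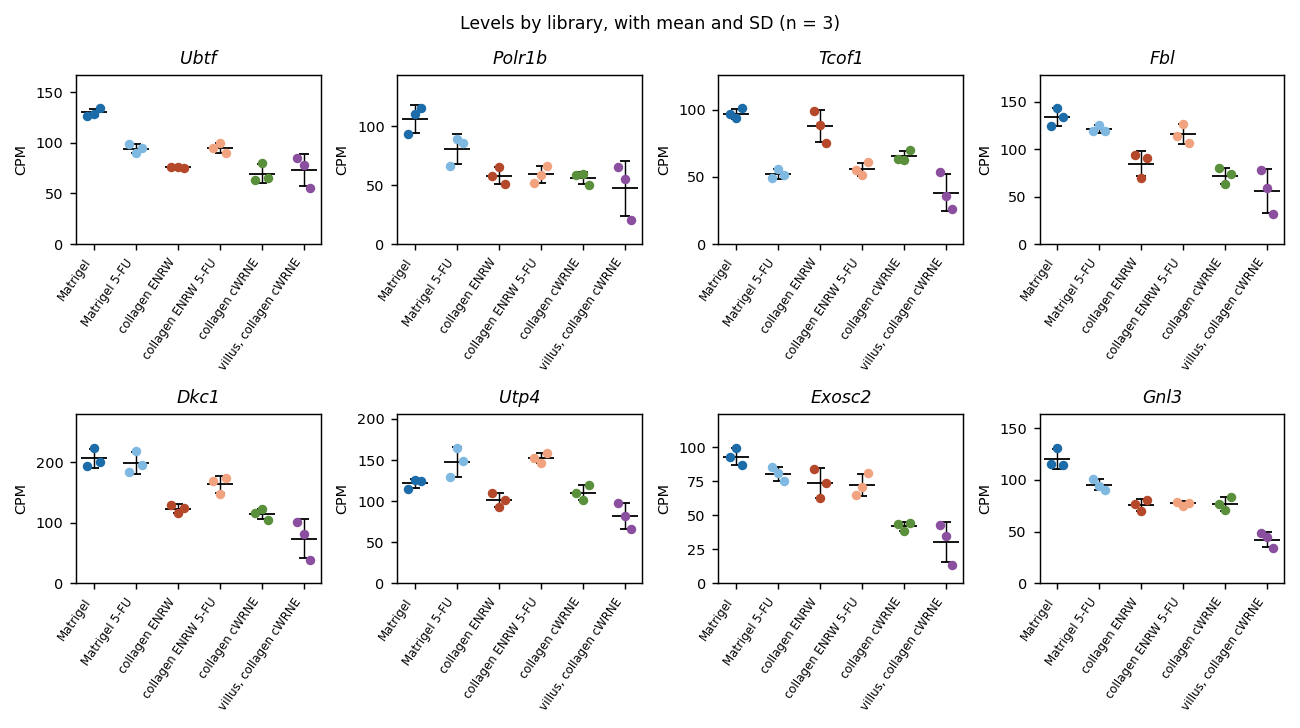
CPM of 8 genes in each library (points), with mean and SD (bars, n = 3) for each of the 6 groups. Ubtf with 5-FU meets at 89.5 to 100 CPM in both matrices, Tcof1 is at 49.0 to 60.8 CPM with 5-FU in both, and Gnl3 is lowest in the villus group, with no overlap with any other group.

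The wider pathway was described by 115 other ribosome biogenesis genes, all of which passed the filter. With 5-FU in Matrigel 22 rose (19.1%, against 19.2% of all genes) and 7 fell (6.09% against 11.7%), with a median of 0.10. Mak16 (0.93 ± 0.10) and Brix1 (0.88 ± 0.09), large subunit assembly factors, and Polr1e (0.92 ± 0.09), a polymerase I subunit, rose most, together with Exosc6 (0.92 ± 0.31). Tex10 (-0.59 ± 0.17), Dhx37 (-0.50 ± 0.16), Taf1d (-0.46 ± 0.13) and Utp15 (-0.40 ± 0.13) fell most. With 5-FU in collagen 48 rose (41.7% against 18.6%) and 8 fell (6.96% against 16.7%), with a median of 0.24. Among all genes of at least 10 CPM in 3 libraries, 24.9% were called higher and 25.3% lower. The 115 were not counted with that filter. Taf1b, a subunit of the polymerase I selectivity factor, rose by 1.54 ± 0.21 (edgeR adjusted p = 0.000101), beside Exosc6 (1.68 ± 0.31), Mak16 (1.10 ± 0.10) and Brix1 (0.99 ± 0.09). Dhx37 (-0.73 ± 0.16), Taf1d (-0.63 ± 0.13), Gnl3l (-0.47 ± 0.17) and Rrp1b (-0.43 ± 0.14) fell most. In the interaction, 2 were called higher (1.74% against 1.88%) and 1 lower (0.87% against 6.3%): Ddx51 (0.53 ± 0.15) and Snu13 (0.45 ± 0.13) were higher in collagen and Polr1e lower (-0.65 ± 0.13, edgeR adjusted p = 0.00743). Without the drug 45 of the 115 were lower in collagen (39.1% against 15.4%) and 2 higher (1.74% against 15.8%), the 2 being Ttf1 (0.64 ± 0.15) and Gnl3l (0.55 ± 0.17). Exosc6 (-1.06 ± 0.31), Nle1 (-1.02 ± 0.13), Las1l (-0.81 ± 0.10) and Polr1g (-0.78 ± 0.14) fell most there.

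Exosc6 values are uncertain. In GENCODE M21 the gene lies inside Aars on the same strand. Its estimated counts were 207 to 1661 in the 12 libraries of the drug comparison and exactly 0 in all 6 libraries of COL_cWRNE and VIL, and it was the 1 gene of the table at 0 in those 6 with at least 100 counts in each of the other 12. A count of 0 allows up to 3 counts in a library. No fold change is given for it in those comparisons.

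The Myc genes, activators of this pathway, were read beside it. Myc was at 312, 253 and 249 CPM in collagen and rose with 5-FU to 364, 352 and 369 CPM (0.38 ± 0.10, edgeR adjusted p = 0.00744). In Matrigel it was at 249, 269 and 258 CPM and then 268, 289 and 281 CPM (0.16 ± 0.10, edgeR adjusted p = 0.233), and the interaction was not called (0.22 ± 0.14, edgeR adjusted p = 0.389). Mycn was far lower, at 1.20 to 10.2 CPM in those 12 libraries. It rose with 5-FU in collagen (1.05 ± 0.29, edgeR adjusted p = 0.0131), and its interaction was called (1.73 ± 0.42, edgeR adjusted p = 0.0225). The Mxd proteins compete with Myc for the same partner and act as repressors. With 5-FU in Matrigel and in collagen, Mxd1 rose by 1.40 ± 0.17 and 0.87 ± 0.17 and Mxd4 by 0.86 ± 0.15 and 1.48 ± 0.16. Mxd3 fell by 1.64 ± 0.23 and 1.15 ± 0.22. Without 5-FU, Mxd1 was higher in collagen with ENRW than in Matrigel (0.84 ± 0.17, edgeR adjusted p = 0.00203). Of the same 9 regulators, Mxd4 (-0.80 ± 0.15), Max (-0.48 ± 0.10) and Mlx (-0.34 ± 0.09) were lower there, and 5 were not called.

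**Figure D4:**
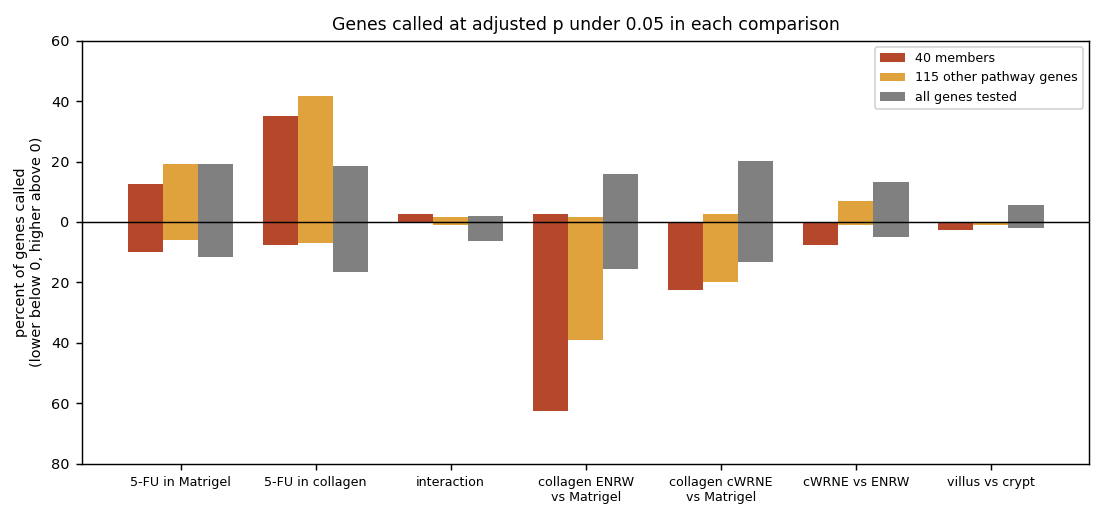
Percent of genes called higher (above 0) or lower (below 0) at an edgeR adjusted p under 0.05 in each of the 7 comparisons, for the 40 members, 115 other genes of the pathway and all genes tested. The members' bar is largest for collagen with ENRW against Matrigel (62.5% lower, against 15.4% of all genes); with library totals 9 and not 14 members are higher with 5-FU in collagen.

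In cWRNE medium the crypt-derived collagen cultures were also below the Matrigel controls. Of the 40 genes, 0 were called higher and 9 lower, where 20.1% and 13.1% of the 16699 genes tested were. The median was -0.53 against -0.01 for all genes, and the summed level was 4614 ± 122 CPM. All 15 proliferation genes had fold changes below 0, with a median of -0.56, and 2 were called lower and 0 higher. This fit shares its estimate of the spread with the villus-derived libraries, and the Matrigel controls are also those of the comparison with ENRW. Without the 3 villus-derived libraries, a fit chosen after seeing the data, 29 of the 40 were called lower and 0 higher, where 22.4% and 24.7% of genes tested were, at the same median of -0.53. With any 1 library of the 2 groups left out of the 9-library fit, 2 to 3 were called lower, where 5.98% to 7.94% of genes tested were.

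Exosc2, a core exosome subunit, changed most, from 93.1, 99.8 and 87.0 CPM in Matrigel to 43.5, 38.2 and 44.1 CPM (-1.20 ± 0.33, edgeR adjusted p = 0.0208). Ubtf was at 63.2, 80.0 and 65.7 CPM (-0.95 ± 0.17, edgeR adjusted p = 0.00286), Fbl at 79.7, 62.9 and 73.8 CPM (-0.94 ± 0.27, edgeR adjusted p = 0.0258) and Dkc1 at 116, 122 and 105 CPM (-0.90 ± 0.28, edgeR adjusted p = 0.0353). None of the 4 overlapped the Matrigel controls. Gnl3 (-0.69 ± 0.15), Bop1 (-0.68 ± 0.21), Utp20 (-0.62 ± 0.20), Polr1a (-0.60 ± 0.18, at 45.8, 42.2 and 44.0 CPM) and Exosc5 (-0.52 ± 0.17) were the other called genes. The calls of Ubtf and Gnl3 held in all 15 alternative fits. Those of Exosc2, Fbl and Dkc1 ended whichever of the 6 libraries was left out, with adjusted p up to 0.0854 for Exosc2, 0.108 for Fbl and 0.116 for Dkc1. Not called were Ncl at 528, 495 and 532 CPM (-0.71 ± 0.25, edgeR adjusted p = 0.0563), Npm1 at 505, 412 and 437 CPM (-0.55 ± 0.26, edgeR adjusted p = 0.127) and Polr1b at 58.2, 59.3 and 50.2 CPM (-0.97 ± 0.34, edgeR adjusted p = 0.0532). These 3 too lay wholly below the Matrigel controls. Nop56 (281, 264 and 302 CPM, -0.28 ± 0.24), Pes1 (157, 146 and 144 CPM, -0.27 ± 0.17), Rrn3 (61.9, 83.9 and 70.7 CPM, 0.09 ± 0.17) and Exosc10 (57.9, 63.5 and 73.2 CPM, -0.03 ± 0.14) were not called. Of the 115 other genes 3 rose (2.61%), Taf1b (0.73 ± 0.20), Mphosph6 (0.51 ± 0.16) and Sbds (0.39 ± 0.12). A further 23 were called lower (20.0% against 13.1% of all genes), a count that includes Exosc6 with its uncertain values. Apart from Exosc6, Nle1 (-1.17 ± 0.33), Polr1g (-1.06 ± 0.34) and Mdn1 (-1.01 ± 0.21) were ahead.

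Between the 2 media in collagen few of the 40 genes were called. With cWRNE against ENRW, 0 were higher and 3 lower, where 13.1% and 4.85% of the 17708 genes tested were, and the median was -0.06 against 0.00. All 15 proliferation genes had fold changes below 0 in cWRNE, with a median of -0.51, and 1 was called lower and 0 higher. The 3 were Exosc2, at 43.5, 38.2 and 44.1 CPM against 84.5, 63.1 and 73.9 CPM (-0.82 ± 0.26, edgeR adjusted p = 0.039), Utp20, at 21.6, 23.8 and 21.6 CPM against 30.9, 37.8 and 33.9 CPM (-0.61 ± 0.20, edgeR adjusted p = 0.0446), and Polr1a (-0.45 ± 0.14, edgeR adjusted p = 0.0356). No group overlapped, and leaving out any 1 of the 6 libraries ended each of these calls, with adjusted p up to 0.127 for Exosc2, 0.149 for Utp20 and 0.121 for Polr1a. With the villus-derived libraries left out, 1 member was higher and 8 lower, where 15.4% and 10.7% of genes tested were. Library totals moved the median of all genes to -0.16 and gave 0 and 6, and the share of all called genes that were higher from 73.0% to 45.2%. DESeq2 called 1 member higher, and at an unadjusted p under 0.05 there was 1. Mycn went from 3.57, 3.39 and 3.95 CPM to 25.4, 33.0 and 23.3 CPM (2.91 ± 0.33, edgeR adjusted p = 3.1e-05), whereas Myc was not called (0.07 ± 0.11, edgeR adjusted p = 0.731). Of the wider list 8 rose (6.96%, against 13.1% of all genes). The only lower call was Exosc6, whose values are uncertain, so it is not read as a fall (4.85% of all genes were lower). Las1l (1.00 ± 0.17), Taf1b (0.98 ± 0.21), Eif6 (0.84 ± 0.18) and Sbds (0.73 ± 0.11) rose most.

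The villus-derived cultures had the lowest levels, with wide spread. VIL had the lowest group mean for 33 of the 40 genes, and replicate 3 was the lowest of all 18 libraries for 37. Neither count was made over all genes, so neither sets the 40 apart. The summed level of the 40 in VIL was 4355, 3757 and 2353 CPM, against 4747, 4508 and 4588 CPM in COL_cWRNE. Replicate 1 thus lay just below the crypt-derived cultures and replicate 3 far below. The summed level of the 15 proliferation genes followed the same order, with 1661, 1646 and 674 CPM against 2295, 2053 and 2582 CPM. The mesenchyme and immune markers were higher in replicates 2 and 3 than in replicate 1. All 6 immune markers were detected in each VIL library and 9, 10 and 10 of the 10 mesenchyme markers. The part of these in the levels of the 40 genes was not tested.

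**Figure D5:**
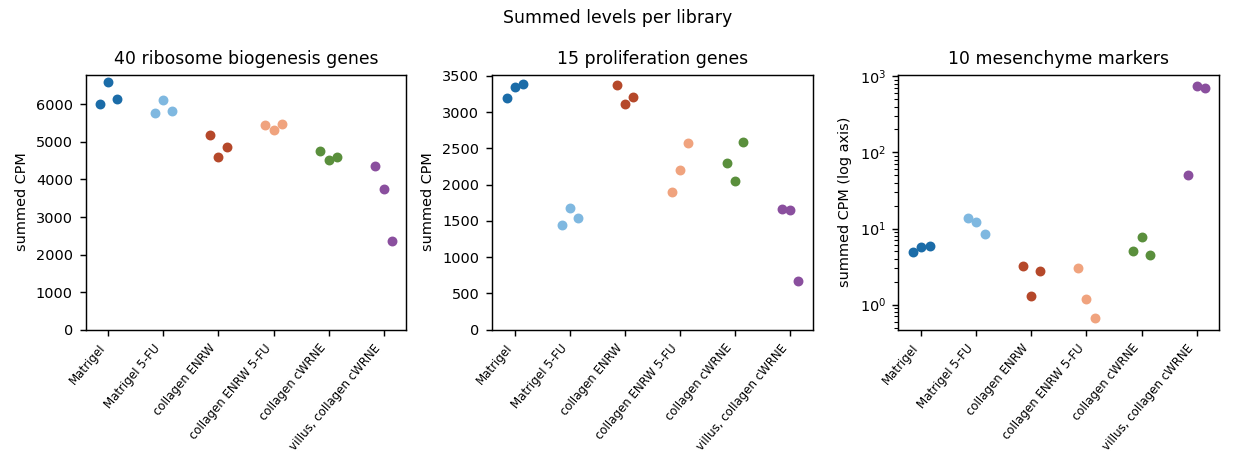
Summed CPM per library (points) of the 40 genes, 15 proliferation genes and 10 mesenchyme markers (log axis), by group. The 3 VIL libraries spread from 4355 to 2353 CPM for the 40 genes, and hold 50.5, 742 and 703 CPM of mesenchyme markers.

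In the test of villus-derived against crypt-derived cultures in the same matrix and medium, 0 members were higher and 1 lower, where 5.68% and 1.96% of genes tested were. The median was -0.38 against -0.03 for all genes, but -0.15 against -0.03 without VIL replicate 3, and -0.04 against -0.07 with VIL replicate 1 as the only villus library. The called gene was Gnl3, at 48.6, 44.4 and 34.1 CPM against 76.5, 70.6 and 83.8 CPM. Every VIL library lay below every crypt-derived one (-0.85 ± 0.15, edgeR adjusted p = 0.0117). On TPM with limma 0 were higher and 4 lower, and the share of all called genes that were higher went from 74.4% to 54.0%. At an unadjusted p under 0.05, 0 members were higher and 9 lower. The call of Gnl3 ended without COL_cWRNE replicate 1 (-0.82, adjusted p = 0.058) or replicate 3 (-0.75, 0.0674). Lower calls numbered 4 without VIL replicate 1, 2 without VIL replicate 3, and 0 without COL_cWRNE replicate 1 or 3. Of all genes tested, 2.86%, 2.79%, 0.269% and 0.297% were called lower in these fits. Myc was lower too, at 190, 171 and 154 CPM against 306, 249 and 297 CPM (-0.72 ± 0.13, edgeR adjusted p = 0.0133), and Mycn was not called (-0.55 ± 0.31, edgeR adjusted p = 0.341). Of the 115 other genes, 0 were higher and 1, Taf1d (-0.55 ± 0.13), lower (0.87%, against 1.96% of all genes).

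Among the 3 VIL libraries, 38 of the 40 genes were lowest in replicate 3. The members that follow were not called. Ncl was at 522, 406 and 224 CPM (-0.42 ± 0.25), Npm1 at 388, 342 and 177 CPM (-0.57 ± 0.26) and Nop56 at 201, 193 and 98.8 CPM (-0.77 ± 0.24, edgeR adjusted p = 0.0869). Fbl was at 78.1, 59.2 and 31.9 CPM (-0.35 ± 0.27), Dkc1 at 102, 81.0 and 39.2 CPM (-0.62 ± 0.28) and Polr1b at 65.7, 55.3 and 20.5 CPM (-0.23 ± 0.34). In each of these 6 genes replicate 3 was far below the others. Polr1a (61.0, 40.9 and 42.0 CPM, 0.13 ± 0.18), Rrn3 (75.9, 63.2 and 59.4 CPM, -0.12 ± 0.17), Pes1 (155, 126 and 93.6 CPM, -0.25 ± 0.17) and Exosc10 (61.8, 65.9 and 54.2 CPM, -0.09 ± 0.14) varied less. Replicate 1 lay below every crypt-derived library for 19 members and above every one for 7. Replicate 2 lay below for 30 and replicate 3 for 39. These counts, and the 38 above, were not made over all genes, so they do not set the 40 apart.

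Over the 7 comparisons, 34 of the 40 genes were called at least once. The share of all genes called at least once was not counted. With 5-FU in collagen alone, 18.6% of genes tested were called higher and 16.7% lower. The 6 never called were Rrn3, Mybbp1a, Nop10, Wdr75, Ddx10 and Rrp12.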

How the data were processed

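The authors deposited a table of estimated counts and TPM per gene for 18 libraries. Per the labels' protocols, libraries were made from polyadenylated RNA with SMART-Seq and Nextera XT chemistry. The submitters' processing notes name bcl2fastq 2.20, DRAGEN and GRCm39 (mm39); the annotation, counting and filters are not given in the sources used here. Of the nonzero deposited estimated counts, 67.8% were whole (tolerance 1e-9), and all were rounded. Library totals were 22.3 M to 34.5 M. No 2 replicates agreed within sampling noise (lowest chi-square per degree of freedom 11.3).

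Counts were tested with edgeR 4.0.16 (R 4.3.3; TMM, filterByExpr with a minimum count of 10 and total of 15, quasi-likelihood test, Benjamini-Hochberg over all genes), with 12 libraries for the drug and matrix comparisons, 9 for those with Matrigel and villus-derived cultures in cWRNE, and 18 for cWRNE against ENRW. The SE was the fold change divided by the root of F. The authors' deposited TPM were tested as log2(TPM + 1) with limma 3.58.1 for genes of at least 1 TPM in 3 libraries. Such fold changes understate those of low genes. The alternatives also included DESeq2 1.42.0, other scalings and filters, other sets of libraries and leaving out each library. Counts were also simulated with a small part of the genes altered. For 5-FU in Matrigel (16611 genes), 59% of the 2-fold and 72% of the 4-fold changes set were recovered. For villus-derived against crypt-derived cultures (16699 genes), 16% and 62% were. Far fewer genes were altered than were called in the data, so the adjusted p cutoff was stricter there than in the data. Recovery was not computed for the ribosome biogenesis genes alone.

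Groups and replicates came from the labels, which call the replicates biological. Same-numbered collagen libraries with and without 5-FU deviated together (r = 0.43, 0.21 and 0.205 over 9504 genes), and a fit with the replicate as a block gave the same counts of 14 higher and 3 lower. Gene symbols were matched for 52081 of 55414 genes. Values in every library are given for 10 genes fixed by name and for up to 4 called members per comparison and direction with the largest fold change and no overlap of groups. Of the wider list, up to 4 called genes per comparison and direction are named. The members and lists were chosen with earlier results of these data known.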

Additional observations from a re-analysis of the deposited data

Results flagged for a closer look

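Ubtf was the 1 member whose response to 5-FU differed between matrices by the interaction test, at 0.70 ± 0.12 on the log2 scale (edgeR adjusted p = 0.00228). It was at 127, 129 and 134 CPM in Matrigel and 98.4, 89.5 and 95.2 CPM with 5-FU, and at 76.5, 76.6 and 75.2 CPM in collagen and 94.6, 100 and 90.0 CPM with 5-FU. All 3 treated libraries were below their controls in Matrigel and above them in collagen.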

How the results depend on the processing

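Counts of called members are given as higher and lower. For 5-FU in Matrigel (5 and 4) they were 1 and 10 with library totals, 3 higher without the filter, 7 lower with DESeq2, 0 and 19 on TPM with limma, and 2 and 2 in a fit of all 18 libraries. For 5-FU in collagen (14 and 3) they were 9 higher with library totals, 1 lower without the filter, 4 higher on TPM and 6 and 1 with all 18 libraries. For the interaction (1 and 0), 2 were higher with library totals or no filter, 3 with DESeq2 and 4 on TPM. For collagen with ENRW against Matrigel (1 and 25) they were 0 higher without the filter, 2 and 11 on TPM and 0 and 12 with all 18 libraries. For cWRNE against Matrigel (0 and 9), lower calls numbered 16 with RLE size factors, 19 with library totals, 18 with the filter of 10 CPM in 3 libraries or with DESeq2, 5 on TPM, 23 with all 18 libraries and 29 without VIL. Between cWRNE and ENRW (0 and 3) they were 6 lower with library totals, 1 higher with DESeq2, 1 and 6 with only the compared groups, and 1 and 8 without VIL. For villus-derived against crypt-derived cultures (0 and 1), lower calls numbered 2 with library totals, 3 without the filter or with DESeq2, 4 on TPM and 8 with all 18 libraries. At a log2 fold change of at least 1, cWRNE against Matrigel kept 1 lower call and every other comparison 0 in both directions. The shares of all genes called moved as well. For 5-FU in Matrigel they were 14.7% higher and 18.2% lower with library totals, and 10.3% and 26.4% on TPM. For 5-FU in collagen, 14.9% were higher with library totals and 14.1% on TPM. For collagen with ENRW against Matrigel, they were 24.1% and 9.04% on TPM. For cWRNE against Matrigel, 16.2% were lower with library totals, 20.1% with the filter of 10 CPM in 3 libraries and 16.9% with all 18 libraries. In the villus comparison, 5.78% were lower with all 18 libraries. The cause of these differences was not tested.

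Leaving out 1 library at a time gave 3 to 6 higher and 2 to 6 lower for 5-FU in Matrigel, 9 to 16 and 1 to 3 for 5-FU in collagen (1 without COL_Control replicate 3), 1 and 0 for the interaction, and 0 to 1 and 16 to 24 for collagen with ENRW against Matrigel. It gave 0 higher in the other comparisons, with 2 to 3 lower in cWRNE than in Matrigel, 0 to 1 lower in cWRNE than in ENRW and 0 to 4 for villus-derived against crypt-derived cultures. Over all genes, 5.98% to 7.94%, 2.4% to 3.28% and 0.269% to 2.86% were lower in these, in that order. With 5-FU, 15.4% to 17.6% were higher in Matrigel and 14.2% to 17.1% in collagen. In collagen with ENRW against Matrigel, 11.1% to 13.7% were lower. With 5-FU in Matrigel, 24 members were above 0 with TMM scaling and 3 on TPM with limma, so 21 changed sign. Of these, 15 were called in neither fit. The 6 called in either were Nolc1 (-0.37, adjusted p = 0.0376), Nop56 (-0.36, 0.0238), Dkc1 (-0.38, 0.046), Nhp2 (-0.29, 0.0253), Wdr12 (-0.09, 0.635) and Rrp1 (-0.02, 0.893). On simulated counts over genes tested, recovery of 2-fold changes ranged from 16% (villus-derived against crypt-derived cultures) to 59% (5-FU in Matrigel). Far fewer genes were altered in the simulation than were called in the data, which makes its cutoff stricter. Recovery was not computed for the members alone either, so these shares do not give the power for them. Some smaller changes of members were called and held in all 14 alternative fits. Examples were Ubtf with 5-FU in Matrigel (-0.41 ± 0.08) and Rrp1 with 5-FU in collagen (0.48 ± 0.08).

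With the replicate number as a block, the counts were 5 and 6 for 5-FU in Matrigel, 14 and 3 for 5-FU in collagen, 1 and 0 for the interaction, 1 and 25 for collagen with ENRW against Matrigel, 0 and 10 for cWRNE against Matrigel, 0 and 3 between the collagen media and 0 and 1 for villus-derived against crypt-derived cultures. Single calls that the block moved were Polr1a and Polr1b with 5-FU in Matrigel (gained), Nolc1 (lost) and Nhp2 (gained, adjusted p = 0.0452) in collagen against Matrigel, and Gar1 (gained, 0.0439), Nop10 (gained, 0.029) and Utp20 (lost, 0.0598) in cWRNE against Matrigel. In Matrigel, same-numbered libraries with and without 5-FU had r = 0.555, 0.095 and 0.449, and not every library correlated best with its own number. Across matrices all 3 pairs passed 0.1 for MG_Control with COL_5FU (0.179, 0.164 and 0.182) and for MG_5FU with COL_Control (0.236, 0.456 and 0.109), but not for MG_Control with COL_Control (0.253, -0.065 and 0.103). The labels do not say what the numbers share.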
